A study of Mus musculus with 16 samples.

Results

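The skeletal muscle transcriptome of mice kept on a high-fat diet (HFD group) was compared with that of mice on a normal diet (control group). The comparison used 8 of the 16 mice sequenced, 4 in each group, chosen by their labelled treatment. All were C57BL/6J males bought at 6 weeks of age. The HFD group was given the feed D12492J, with 60% fat, 20% protein, and 20% carbohydrate. By the study's description, the control feed had the same share of protein, far more carbohydrate, and far less fat. The labels give 8 weeks on the HFD feed before other HFD mice began 6 weeks of resveratrol (HFD + RSV group) or metformin. Neither of the groups compared here received resveratrol or metformin. By the study's description, some mice of each group, picked at random, were injected with insulin shortly before anaesthesia and tissue collection. Whether the mice sequenced were among them is not stated, and the part of insulin in the values was not tested. Each mouse gave 1 RNA library, so replicates are mice. The labels do not name the muscle, and 1 protocol line speaks of retinas. The 4 HFD mice share the leading label number 7, which no mouse of another group carries, and the control mice carry 1 or 2. What goes with that number, such as a cage, cannot be told apart from the diet.

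Skeletal muscle takes up most of the glucose that insulin clears from the blood, and a high-fat diet lowers its response to insulin. Muscle also burns fatty acids from the circulation. Its fibres differ in speed, with slow fibres rich in mitochondria and fast fibres relying on glycolysis and on rapid calcium release. New fatty acids are made mainly in liver and in adipocytes, and pieces of muscle can carry adipocytes, nerve, and vessels. In bulk RNA, fewer cells of a type and less RNA per cell cannot be told apart.

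The total count per mouse ranged from 20962328 to 34021101 in the control group and from 24498057 to 30593942 in the HFD group. Of 23235 gene names, 15097 passed the filter on low counts and were tested. Levels are given as CPM, the share of a library's counts scaled by TMM to a common size, and log2FC is the HFD group over the control group. Within a group, gene levels of any pair of mice had a Spearman correlation of 0.97 to 0.989, and across the groups the pairs reached 0.94 to 0.978.

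Genes that mark the myofibre summed to 179500 to 318400 CPM in the control mice and 270500 to 340600 CPM in the HFD mice, so each library was dominated by muscle fibre genes. None of the 10 myofibre markers was called by the edgeR test (2 higher at an unadjusted P under 0.05, and 1 higher with DESeq2). Control mouse 3 stood apart. It had the lowest myofibre sum (179500 CPM), the lowest sum of tenocyte markers (44.01 CPM, against 252.2 to 325.7 CPM in the other control mice), and the highest sums of white adipocyte markers (6333 CPM, against 2065 to 3064 CPM in the other control mice) and of brown adipocyte markers (857.8 CPM, against 46.94 to 137.2 CPM). In the HFD mice, white adipocyte markers summed to 755.6 to 2162 CPM and brown adipocyte markers to 3.93 to 57.39 CPM, with HFD mouse 4 the highest in both. Schwann cell markers summed to 103.5 to 304.2 CPM in the control group and 75.93 to 102.8 CPM in the HFD group. Control mouse 1 stood apart in its slow fibre genes, described with the contractile genes.

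Across the transcriptome, 1616 genes (10.7% of those tested) differed between the groups at an adjusted P under 0.05 in edgeR's quasi-likelihood test. Of these, 739 (4.9%) were upregulated and 877 (5.81%) were downregulated in the HFD group. Scaling over both tables together moved this split to 944 up and 728 down. The shares of 4.9% and 5.81% are those to set beside the counts of each gene list below. Upregulated genes moved little, with a median log2FC of 0.528, and 92 of them exceeded a log2FC of 1. Downregulated genes had a median of -0.827, and 357 of them were below -1. The median over all genes tested was -0.0197. The levels of the 4 mice of each group did not overlap in 1332 genes higher in the HFD group (8.82% of those tested) and in 1453 genes lower in it (9.62%).

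The direction of the calls went with the level of the gene. Among genes in the highest range of levels (a mean above 22.9 CPM), 448 were upregulated and 290 downregulated, whereas in the lowest range (a mean below 5.14 CPM) 73 were upregulated and 244 downregulated. The number of calls depended on single mice. It was 2378 without control mouse 1, 910, 744, and 1058 without control mouse 2, 3, and 4, and 398, 572, 544, and 1528 without HFD mouse 1, 2, 3, and 4. A fit to the 8 mice alone gave 998 calls, a fit over all 16 mice 374, and DESeq2 2514. Of the 112 called genes named here, 71, 56, and 75 kept the call without control mouse 2, 3, and 4, and 38, 53, 46, and 89 without HFD mouse 1, 2, 3, and 4. In none of the settings tried did a called gene named here change direction.

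**Figure D1:**
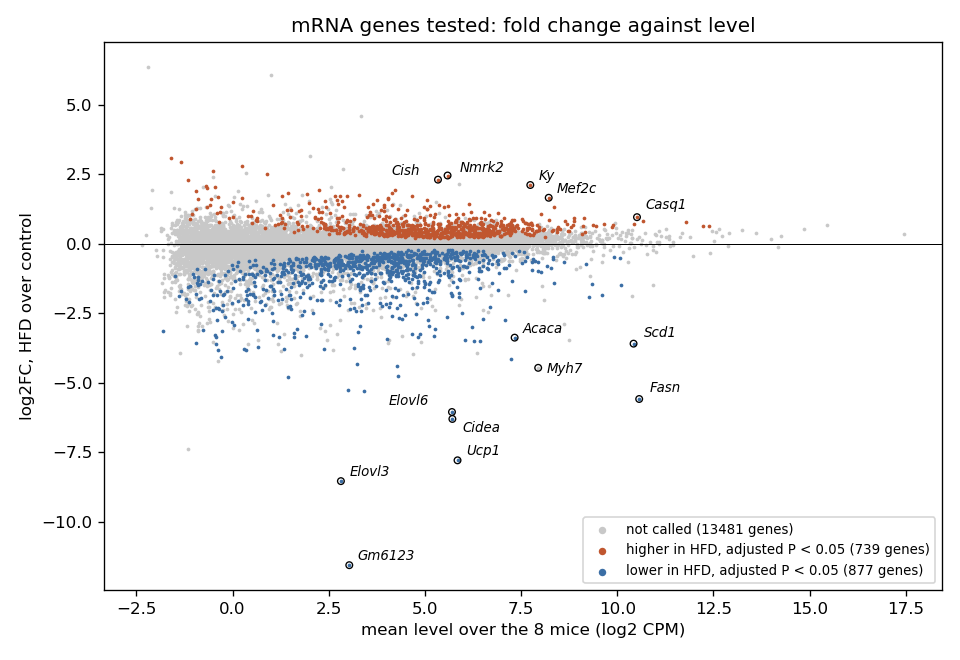
Each point is 1 of the mRNA genes tested, with its mean level over the 8 mice on the x axis (log2 CPM) and its log2FC (HFD over control) on the y axis. Orange points (739 genes) were upregulated, blue points (877 genes) were downregulated, grey points were not called, and the circled genes are described in the text. The downregulated genes reach further from 0 than the upregulated ones.

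Calls among genes of fatty acid synthesis were all downward. Of 18 lipogenesis genes, 10 were downregulated and none was upregulated, and the median log2FC of the list was -1.15. In 10 members the groups did not overlap, with the HFD mice lower. Over all genes tested, 9.62% were lower without overlap and 5.81% were downregulated. Leaving out 1 mouse at a time gave between 8 and 10 downregulated members, and a fit over all 16 mice gave 7.

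Fatty acid synthase (Fasn), which assembles palmitate, was at 2381, 2679, 6414, and 452.1 CPM in the control mice and at 53.2, 38.65, 83.23, and 72.66 CPM in the HFD mice. Every HFD mouse was below every control mouse, and the log2FC was -5.59 (SE 0.729, adjusted P = 0.00404), a 48.1-fold lower level. Acetyl-CoA carboxylase 1 (Acaca), the enzyme that supplies malonyl-CoA to Fasn, was at 282.1, 275.9, 520.9, and 98.07 CPM in the control mice and at 25.83, 24.52, 28.82, and 33.84 CPM in the HFD mice. Its HFD values lay close together and its control values spread widely (log2FC -3.38, SE 0.412, adjusted P = 0.00325). Elovl6, which lengthens palmitate to stearate, was at 82.87, 90.64, 226.4, and 10.67 CPM in the control mice and at 1.502, 1.023, 2.581, and 1.052 CPM in the HFD mice (log2FC -6.06, SE 0.826, adjusted P = 0.0046). Stearoyl-CoA desaturase 1 (Scd1), which makes oleate, was at 2028, 1703, 5287, and 1143 CPM in the control mice and at 130.5, 67.34, 324.9, and 316.8 CPM in the HFD mice (log2FC -3.60, SE 0.751, adjusted P = 0.0176). In all of these genes control mouse 3 was the highest and control mouse 4 the lowest of the control group. The desaturase Fads1 changed less (log2FC -1.05, SE 0.161, adjusted P = 0.00627), from 12.68 to 19.76 CPM in the control mice to 6.517 to 8.139 CPM in the HFD mice.

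White adipocyte markers summed to less in 3 of the HFD mice than in any control mouse, and few of them were called. Adiponectin (Adipoq), which adipocytes secrete, was at 103.5, 69.3, 349.1, and 141.8 CPM in the control mice and at 20.29, 11.01, 60.71, and 93.69 CPM in the HFD mice, and the groups overlapped (log2FC -1.84, SE 0.771, adjusted P = 0.145). Of 12 white adipocyte markers, 2 were downregulated and none upregulated, with a median log2FC of -1.9. The log2FC was below 0 in 11 of the 12 and above 0 in 1, at 1.39. The fatty acid binding protein gene Fabp4 fell from 525.7 to 2202 CPM in the control mice to 154.9 to 449.5 CPM in the HFD mice (log2FC -1.92, SE 0.535, adjusted P = 0.044). The lipase gene Lipe fell from 110.2 to 353.4 CPM to 37.46 to 99.13 CPM (log2FC -1.65, SE 0.443, adjusted P = 0.0391). No white adipocyte marker was called by edgeR without control mouse 3 or 4 or HFD mouse 1, 2, or 3, in the fits to 8 or 16 mice, or without the filter on low counts, and DESeq2 called 6.

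To set the enzymes beside the adipocyte gene, their CPM was divided by that of Adipoq within each mouse. The step and the 4 enzymes were chosen after the values were seen, so the ratios are given as a description. The ratio of Fasn to Adipoq was 3.19 to 38.7 in the control mice and 0.776 to 3.51 in the HFD mice, an 8.54-fold lower mean on the log scale with groups that overlapped. The ratios of Elovl6, Scd1, and Acaca were 11.2-fold, 3.01-fold, and 2.19-fold lower, and the groups overlapped in Elovl6 and Acaca. The part of adipocyte content in the lipogenic values was not tested.

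**Figure D2:**
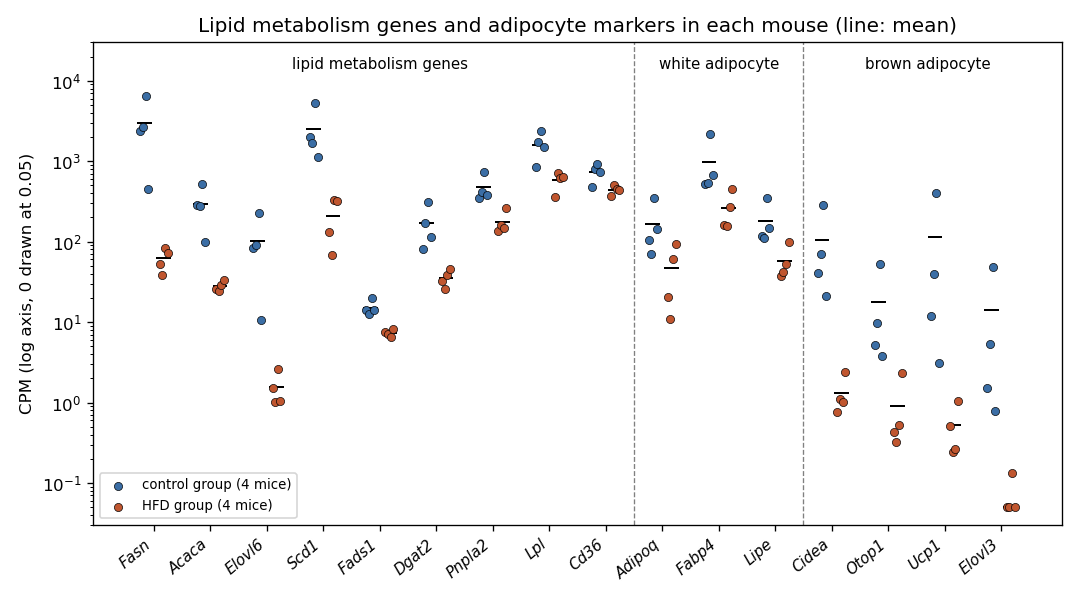
Points are single mice (4 control in blue, 4 HFD in orange, in the order of their replicate numbers), and horizontal lines are group means. The y axis is CPM on a log axis, with values of 0 drawn at 0.05. Lipid metabolism genes stand on the left and markers of white and brown adipocytes on the right. The HFD mice lie below the control mice in each gene shown except Cd36 and Adipoq, in which the groups overlap, and control mouse 3 is the highest point of each control group.

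Of 6 genes that mark brown adipocytes, 4 were downregulated in the HFD group, namely Ucp1, Elovl3, Cidea, and Otop1. Uncoupling protein 1 (Ucp1), the heat-producing carrier of brown fat, was at 11.82, 39.59, 404.1, and 3.108 CPM in the control mice and at 0.5149, 0.2456, 0.2624, and 1.052 CPM in the HFD mice (log2FC -7.80, SE 1.82, adjusted P = 0.0252). The elongase gene Elovl3 was at 1.505, 5.368, 48.54, and 0.7771 CPM in the control mice. The HFD libraries held at most 3 counts each. Set against a floor of 3 counts per library, the control mean, which control mouse 3 dominated, was at least 108-fold higher. Cidea, a lipid droplet protein of brown adipocytes, was at 41.35, 69.49, 282.6, and 21.4 CPM in the control mice and at 0.7723, 1.105, 1.006, and 2.378 CPM in the HFD mice (log2FC -6.31, SE 1.1, adjusted P = 0.00994). Cidea stayed called in all 14 alternative settings, Elovl3 in 11, and Ucp1 in 9. Of the 4 markers, 2 stayed called without control mouse 3, and 1 without HFD mouse 1, 2, or 3.

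Of 18 genes of lipid droplets, which store and release triglycerides, 7 were downregulated and none upregulated, with a median log2FC of -1.09. The count was 4 without control mouse 3, 3 without HFD mouse 1, 2, or 3, and 11 without control mouse 1, and it was 1 over all 16 mice. Of the 7 downregulated genes, some are counted above as well. Dgat2 is also a lipogenesis gene, Cidea a brown adipocyte marker, and Lipe a white adipocyte marker. Diacylglycerol acyltransferase 2 (Dgat2), which completes triglycerides, fell from 81.09 to 312.1 CPM in the control mice to 25.79 to 46.09 CPM in the HFD mice (log2FC -2.26, SE 0.415, adjusted P = 0.0117), and Dgat1 fell with it (log2FC -1.82, SE 0.405, adjusted P = 0.0216). Adipose triglyceride lipase (Pnpla2), which starts their breakdown, fell from 349.8 to 744.9 CPM to 135.8 to 259.4 CPM (log2FC -1.42, SE 0.264, adjusted P = 0.0114). The droplet coat gene Plin2, which many cell types express, was at 56.29 to 203.2 CPM and 34.8 to 52.22 CPM (log2FC -1.27, SE 0.387, adjusted P = 0.0588). The adipocyte marker sums given above are lower in the HFD group in the same way.

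In fatty acid uptake and oxidation, the calls were all downward. Of 31 genes, 6 were downregulated and none upregulated (median log2FC -0.43), and 29 of the 31 had a log2FC below 0. The downregulated share over all genes tested was 5.81%. Lipoprotein lipase (Lpl), which frees fatty acids from circulating triglycerides, was at 856, 1745, 2345, and 1481 CPM in the control mice and at 362.2, 704.5, 616.7, and 632.5 CPM in the HFD mice (log2FC -1.47, SE 0.285, adjusted P = 0.0132). The fatty acid transporter gene Cd36 fell less (log2FC -0.74, SE 0.185, adjusted P = 0.0301). The carnitine transporter gene Slc22a5 and the acyl-CoA thioesterase gene Acot1 were also downregulated, as were Echs1 and Eci2, enzymes of mitochondrial beta-oxidation that are named here only to complete the 6. Cpt1b, which brings fatty acids into muscle mitochondria, was at 319.4 to 478.3 CPM in the control mice and 341 to 448 CPM in the HFD mice (log2FC -0.05, SE 0.177, adjusted P = 0.891). The count of 6 fell to 1 without control mouse 2 or 3 or HFD mouse 1, 2, or 3, to 2 without control mouse 4, and to 3 without HFD mouse 4. The nuclear receptor gene Ppara, whose protein activates oxidation genes, fell (log2FC -1.42, SE 0.394, adjusted P = 0.0437), but its groups overlapped and the call was kept in 4 of 14 settings.

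In cholesterol synthesis, 4 of 22 genes were downregulated and none upregulated (median log2FC -0.28, with 5.81% downregulated over all genes tested). They were squalene epoxidase (Sqle; log2FC -1.51, SE 0.317, adjusted P = 0.0169), squalene synthase (Fdft1), phosphomevalonate kinase (Pmvk), and the sterol sensor Insig1. The count was 1 without HFD mouse 1 or 3, and 2 without control mouse 3 or HFD mouse 2.

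Several negative regulators of cytokine and growth hormone signalling rose. The SOCS family and Cish are induced by JAK-STAT signalling and shut it down in turn, and Bcl6 is a repressor that competes with STAT5 at its sites. Of these 9 genes, 5 were upregulated and none downregulated, and all 9 had a log2FC above 0 (median 0.483).

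Cish was at 10.48, 16.33, 20.49, and 6.942 CPM in the control mice and at 51.96, 53.75, 66.66, and 97.53 CPM in the HFD mice. The groups were far apart (log2FC 2.31, SE 0.369, adjusted P = 0.00787), and the call was kept in 13 of 14 settings. Socs1 was at 0.6688, 0.7029, 0.4261, and 0.3627 CPM in the control mice and at 1.287, 1.433, 3.324, and 6.539 CPM in the HFD mice, which rests on 7 to 22 and 30 to 143 counts (log2FC 2.52, SE 0.508, adjusted P = 0.0147). Socs3, the feedback inhibitor of leptin and interleukin 6 signalling, was at 3.846, 3.483, 3.293, and 3.937 CPM in the control mice and at 6.994, 4.585, 9.01, and 18.7 CPM in the HFD mice (log2FC 1.43, SE 0.363, adjusted P = 0.0322). In these 3 genes HFD mouse 4 was the highest. Bcl6 rose from 35.82 to 84.03 CPM to 86.6 to 119.7 CPM (log2FC 0.93, SE 0.24, adjusted P = 0.0342), and Socs7 rose slightly (log2FC 0.43, SE 0.111, adjusted P = 0.035) with groups that overlapped. Socs2, Socs4, Socs5, and Socs6 were not called, with log2FC from 0.07 to 0.48. The count of 5 was 2 without control mouse 2 or 3 or HFD mouse 1 or 3, and 3 without control mouse 4 or HFD mouse 2. It was 2 in the fit to the 8 mice alone and 1 (Socs1) over all 16 mice.

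STAT proteins are known to bind the letters TTCNNNGAA. These letters, read on both strands, were looked for in RefSeq promoters (GRCm38.p6, from 250 bases before the start to 50 after), which were found for 5 of the 9 genes. The promoters of Bcl6, Cish, and Socs3 held them and those of Socs1 and Socs4 did not, while 8.32% of the tested genes with a promoter held them. The 3 promoters are printed 5′ to 3′ because the genes rose together, with the matching letters in capitals. In Cish (chr9:107296409-107296708, plus strand) the 2 matches begin 0 and 11 bases after the first base of the gene. In Socs3 (chr11:117969317-117969616, minus strand) the match begins 154 bases upstream of the start. In Bcl6 (chr16:23981234-23981533, minus strand) the 3 matches begin between 168 and 88 bases upstream of 1 of its starts.
Cish: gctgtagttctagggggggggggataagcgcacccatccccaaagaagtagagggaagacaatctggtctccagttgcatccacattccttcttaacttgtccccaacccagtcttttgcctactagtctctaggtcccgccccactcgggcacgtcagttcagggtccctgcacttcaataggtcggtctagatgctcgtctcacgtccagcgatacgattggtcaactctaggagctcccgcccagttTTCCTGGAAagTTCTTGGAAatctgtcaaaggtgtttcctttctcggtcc
Socs3: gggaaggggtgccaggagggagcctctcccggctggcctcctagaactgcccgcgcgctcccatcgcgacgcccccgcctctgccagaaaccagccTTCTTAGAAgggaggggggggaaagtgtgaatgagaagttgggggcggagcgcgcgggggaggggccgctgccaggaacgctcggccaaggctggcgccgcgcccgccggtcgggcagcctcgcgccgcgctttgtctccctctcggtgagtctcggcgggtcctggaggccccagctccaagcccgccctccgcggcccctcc
Bcl6: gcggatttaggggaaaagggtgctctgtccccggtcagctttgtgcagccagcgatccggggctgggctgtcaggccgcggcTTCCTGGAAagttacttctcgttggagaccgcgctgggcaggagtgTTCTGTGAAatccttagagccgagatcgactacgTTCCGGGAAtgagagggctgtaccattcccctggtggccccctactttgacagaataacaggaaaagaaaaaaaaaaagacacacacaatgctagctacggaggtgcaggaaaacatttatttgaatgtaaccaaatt
A match is a description of the letters and says nothing of binding in these muscles. By the same search, the E-box CACGTG was found in 5 of 16 clock genes (11.6% of tested genes), TCACNCCAC in 1 of 15 cholesterol genes (1.36%), and TGACGTCA in 2 of 20 immediate early genes (3.39%), of which Btg2 was downregulated.

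The calls among genes of fast contraction and calcium release were all upward. Of 15 genes of excitation-contraction coupling, the link from membrane depolarization to calcium release, 6 were upregulated and none downregulated (median log2FC 0.456). Of 16 fast fibre genes, 5 were upregulated and none downregulated (median log2FC 0.516). The log2FC was below 0 in 2 coupling genes (down to -1.45) and in 3 fast fibre genes (down to -1.5), none of them called. Without control mouse 1 the counts of upregulated genes were 10 and 11. Without control mouse 2, 3, or 4 they were 4, 4, and 3 for coupling and 1 for fast fibre genes each time. Without HFD mouse 1, 2, or 3, coupling genes numbered 3 and fast fibre genes 1, 2, and 2. Over all 16 mice, 2 coupling genes and no fast fibre gene were called by edgeR.

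Calsequestrin 1 (Casq1), which stores calcium in the reticulum of fast fibres, was at 1491, 794.2, 794.7, and 901.8 CPM in the control mice and at 2022, 1940, 2044, and 1717 CPM in the HFD mice (log2FC 0.96, SE 0.188, adjusted P = 0.0135). Control mouse 1 was the closest to the HFD mice. Junctophilin 2 (Jph2), which holds the membrane and the reticulum together, was at 482.7, 284.1, 248.1, and 282.4 CPM in the control mice and at 644, 614.8, 605.3, and 626.1 CPM in the HFD mice (log2FC 0.94, SE 0.175, adjusted P = 0.011). Stac3 and Jsrp1, which act with the voltage-sensing calcium channel, rose by a log2FC of 0.86 and 0.74 (adjusted P = 0.00814 and 0.00781 in edgeR's test), and Hrc, a calcium-binding protein of the reticulum, by 0.61. The calcium release channel Ryr1 was at 6180 to 10310 CPM and 11000 to 11630 CPM, did not overlap, and was not called (log2FC 0.49, SE 0.15, adjusted P = 0.0555).

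The most abundant upregulated genes per length belonged to the contractile machinery and to glycolysis. They were Tpm1 (tropomyosin; 3164 ± 446.7 FPKM in the control group and 4572 ± 342.5 FPKM in the HFD group, SD, n = 4), the calcium buffer Pvalb, troponin C of fast fibres (Tnnc2), the myosin-binding protein Mybpc2, the glycolytic mutase Pgam2, and Casq1. Their log2FC ranged from 0.63 in Mybpc2 to 0.96 in Casq1, and each was higher in all HFD mice than in all control mice apart from Pvalb. The fast myosin gene Myh4 was at 53730, 27140, 28590, and 29110 CPM in the control mice and at 58460, 54250, 55090, and 51440 CPM in the HFD mice (log2FC 0.66, SE 0.21, adjusted P = 0.0637). In Myh4 control mouse 1 lay among the HFD mice.

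All 14 slow fibre genes had a log2FC below 0, with a median of -2.21, but 1 was called. The slow myosin gene Myh7 was at 2.787, 910.3, 452.5, and 520.7 CPM in the control mice and at 17.29, 6.509, 58.78, and 2.698 CPM in the HFD mice (log2FC -4.47, SE 1.6, adjusted P = 0.0958). Control mouse 1 was as low as the lowest HFD mouse, and the other 3 control mice were above all HFD mice. The tropomyosin gene Tpm3 was at 20.45, 138.7, 74.58, and 82.12 CPM in the control mice and at 21.75, 21.45, 29.09, and 19.62 CPM in the HFD mice (log2FC -1.78, SE 0.511, adjusted P = 0.0481). Without control mouse 1, 10 of the 14 genes were downregulated, and Myh7 reached an adjusted P of 0.0372 by edgeR. Without any 1 of the other mice compared, none was called. DESeq2 called 9. Which muscle or part of it each piece held is not given in the labels, and its part in the fibre type genes was not tested.

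**Figure D3:**
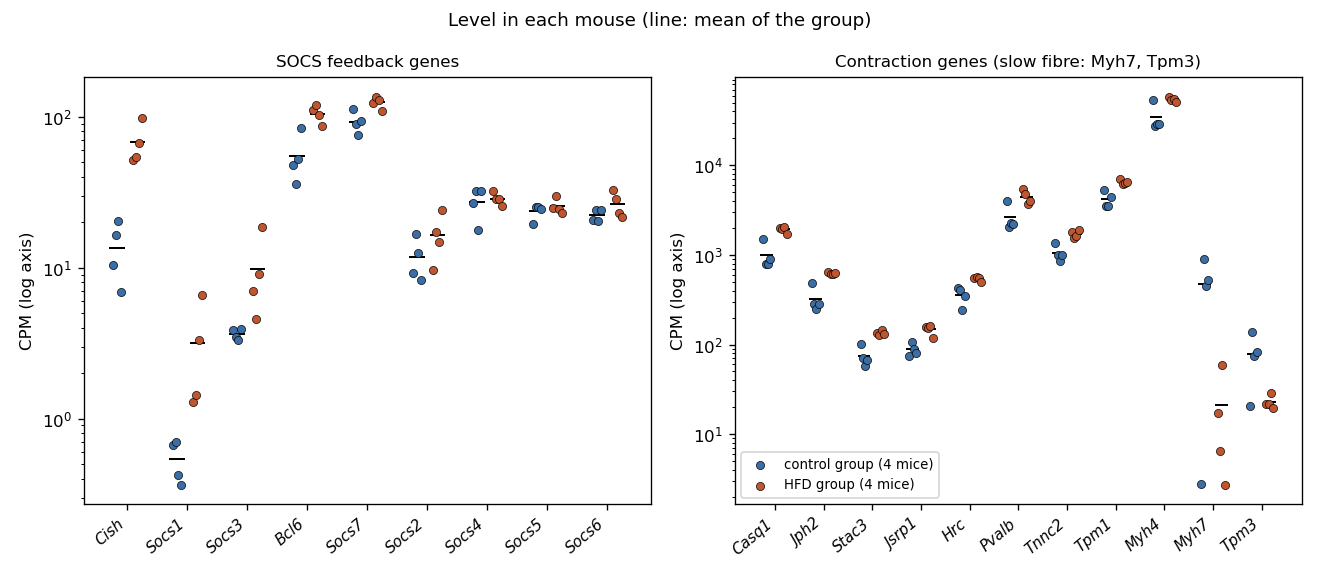
Points are single mice (4 control in blue, 4 HFD in orange, in the order of their replicate numbers), lines are group means, and both y axes are CPM on a log axis. The left panel holds the 9 SOCS feedback genes, in which Cish, Socs1, Socs3, and Bcl6 do not overlap between the groups. The right panel holds genes of calcium handling and fast fibres, whose means are higher in the HFD group, although the groups overlap in Pvalb and Myh4. It also holds the slow fibre genes Myh7 and Tpm3. Control mouse 1 lies among the HFD mice in Myh4, Myh7, and Tpm3.

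The transcription factor gene Mef2c, which drives muscle structural genes, was at 135, 178.4, 81.32, and 180.1 CPM in the control mice and at 417.3, 517.7, 535.3, and 338.6 CPM in the HFD mice (log2FC 1.65, SE 0.275, adjusted P = 0.00818). It was called in all 14 settings. An lncRNA that overlaps an exon of Mef2c rose much more, as given with the lncRNAs, and without information on strand the reads of the 2 cannot be told apart. Of 7 MEF2 and class IIa deacetylase genes, Mef2c and Hdac4 were upregulated. Hdac4, the class IIa deacetylase that represses MEF2 factors, rose from 89.06 to 109.2 CPM to 150.1 to 171.4 CPM (log2FC 0.69, SE 0.146, adjusted P = 0.0173). At the neuromuscular junction, Rapsn, which clusters acetylcholine receptors, rose (log2FC 0.68, SE 0.114, adjusted P = 0.00815), Agrn, the nerve signal for this clustering, fell slightly (log2FC -0.30, SE 0.0844, adjusted P = 0.0441), and 14 of 17 genes were not called. Markers of Schwann cells were all below 0 in log2FC (18 of 18, median -1.28), but none was called by edgeR (5 lower at an unadjusted P under 0.05). DESeq2 called 3, edgeR called 3 in the fit to the 8 mice alone, and it called 2 without control mouse 1.

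Few genes of insulin signalling were called. Of 28 genes, 1 was upregulated and 1 downregulated (median log2FC -0.0664). Irs1, the docking protein of the insulin receptor, rose from 52.58 to 70.67 CPM to 88.3 to 129.9 CPM (log2FC 0.79, SE 0.179, adjusted P = 0.0211), and the kinase subunit gene Pik3cb fell (log2FC -0.68, SE 0.177, adjusted P = 0.0349). The insulin-regulated glucose transporter gene Slc2a4 was at 416, 402.3, 330.6, and 408.9 CPM in the control mice and at 369.1, 359.5, 348.2, and 349.9 CPM in the HFD mice (log2FC -0.13, SE 0.0925, adjusted P = 0.395). Of 9 genes of the energy sensor AMPK, the regulatory subunit Prkag3, which fast fibres express, rose (log2FC 1.14, SE 0.239, adjusted P = 0.0173) and Prkag2 fell (log2FC -0.95, SE 0.264, adjusted P = 0.0424).

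In glycolysis and glycogen turnover, 3 of 25 genes were upregulated and 2 downregulated, beside 4.9% and 5.81% over all genes tested. Pgam2 (log2FC 0.63, SE 0.158), the phosphorylase kinase subunit Phkg1 (log2FC 0.72, SE 0.163), and glycogenin (Gyg; log2FC 0.33, SE 0.0772) rose, and the glycogen branching enzyme Gbe1 fell (log2FC -0.80, SE 0.17, adjusted P = 0.0173). The 3 upward calls were 10 without control mouse 1, 1 without control mouse 2 or 3, and 0 by edgeR without control mouse 4 or HFD mouse 1, 2, or 3 or over all 16 mice. The lists of mitochondrial respiration genes held no call. None of 38 nuclear genes of oxidative phosphorylation, 18 genes of the citric acid cycle, and 13 genes of the mitochondrial genome passed in edgeR or in DESeq2, and 1 gene in these lists had an unadjusted P under 0.05. Their median log2FC was 0.0324, -0.093, and 0.000241. Among respiratory chain genes outside these lists, Cox6a1 and Cox8a were downregulated and Ndufa13 was upregulated. In branched-chain amino acid breakdown, 4 of 19 genes were downregulated, among them Hibch, Hsd17b10, and Dbt, and Bckdk, the kinase that switches the pathway off, was upregulated (log2FC 0.40, SE 0.106, adjusted P = 0.038). The 4 calls fell to 0 without HFD mouse 1, 2, or 3, to 1 without control mouse 3 or 4 or HFD mouse 4, and to 2 without control mouse 2.

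**Figure D4:**
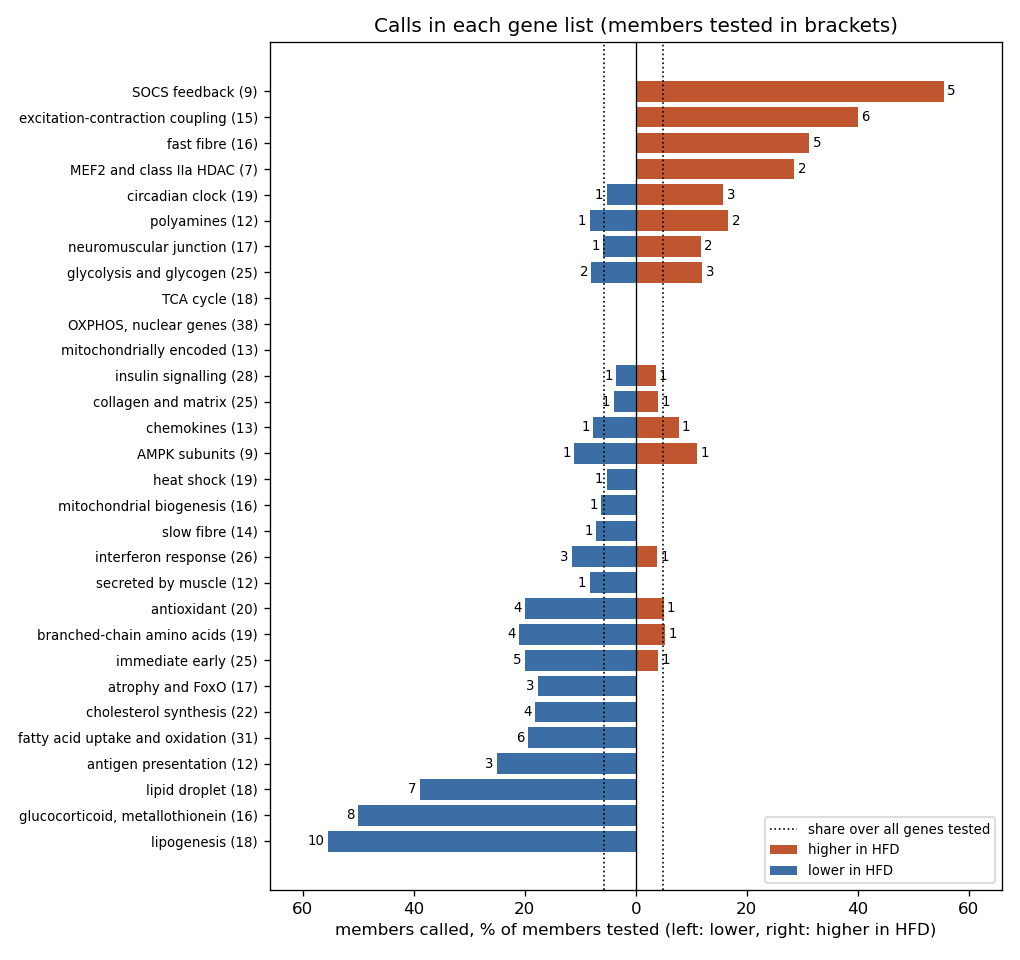
Bars give the members called in each of the 30 gene lists as a percentage of the members tested (x axis, lower in HFD to the left and higher to the right). Numbers at the bars count the genes, numbers in brackets the members tested, and dotted lines mark the shares over all genes tested, 4.9% up and 5.81% down. Lipogenesis (10 of 18) and glucocorticoid and metallothionein genes (8 of 16) reach furthest to the left and SOCS feedback genes (5 of 9) furthest to the right.

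Of 16 genes that respond to glucocorticoids and metals, 8 were downregulated and none upregulated (median log2FC -0.601). Ddit4, a stress-induced inhibitor of mTORC1, was at 34.5, 99.56, 128.2, and 160.1 CPM in the control mice and at 28.45, 12.94, 17.85, and 16.19 CPM in the HFD mice (log2FC -2.49, SE 0.478, adjusted P = 0.0135). Metallothionein 1 (Mt1), which binds zinc, was at 10.37, 25.46, 33.9, and 23.83 CPM in the control mice and at 6.522, 2.784, 4.68, and 7.179 CPM in the HFD mice (log2FC -2.15, SE 0.408, adjusted P = 0.0131). The cell cycle inhibitor gene Cdkn1a was at 36.17, 58.08, 58.92, and 49.27 CPM and at 19.95, 17.77, 19.03, and 16.96 CPM (log2FC -1.46, SE 0.162, adjusted P = 0.00152). Control mouse 1 was the lowest of its group in all 3. Fkbp5, a co-chaperone of the glucocorticoid receptor, fell by a log2FC of 1.54 and glutamine synthetase (Glul) was downregulated by 1.44 on the same scale. The count was 3 without HFD mouse 2 or 3 and 4 without HFD mouse 1, and 2 over all 16 mice.

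Among genes of muscle wasting, 3 of 17 were downregulated and none upregulated. They were Eif4ebp1, a brake on translation (log2FC -1.21, SE 0.132, adjusted P = 0.00147), the mitophagy receptor gene Bnip3 (log2FC -0.67, SE 0.0928, adjusted P = 0.00432), and the autophagy gene Gabarapl1 (log2FC -0.97, SE 0.175, adjusted P = 0.0103). All 3 were called in the 14 settings. Bnip3 was at 280.7 to 342.2 CPM in the control mice and within 188.2 to 193.2 CPM in the HFD mice. The ubiquitin ligase gene Fbxo32 was at 1379 to 2749 CPM and 1249 to 1881 CPM (log2FC -0.36, SE 0.281, adjusted P = 0.428).

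Of 25 immediate early genes, which cells switch on within minutes of a stimulus, 5 were downregulated and 1 upregulated (median log2FC -0.597). Btg2 fell from 74.34 to 97.86 CPM to 28.94 to 46.87 CPM (log2FC -1.31, SE 0.275, adjusted P = 0.0176), and Zfp36, which destabilizes cytokine mRNA, fell by a log2FC of 1.02. The 5 calls were 1 without HFD mouse 1 or 3, 2 without control mouse 3, and 3 without control mouse 2 or HFD mouse 2. Of 19 clock genes, 3 were upregulated and 1 downregulated. Dbp, an output gene of the clock, was at 21.74, 8.882, 14.49, and 21.91 CPM in the control mice and at 60.75, 30.54, 46.45, and 62.09 CPM in the HFD mice (log2FC 1.58, SE 0.392, adjusted P = 0.0311). Nr1d2 and Tef rose by a log2FC of 0.52 and 0.55, and Npas2, a partner of Arntl, fell (log2FC -1.25, SE 0.319, adjusted P = 0.0327). Arntl itself was at 28.96 to 47.32 CPM and 22.59 to 38.85 CPM (log2FC -0.46, SE 0.234, adjusted P = 0.217). The labels give no time of day for tissue collection.

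Few immune genes were called, and most of the called ones were lower in the HFD group. Over all genes tested, 5.81% were downregulated and 4.9% upregulated, so counts this small say little of a list. Of 12 antigen presentation genes, 3 were downregulated, namely Tap1, B2m, and H2-D1, and of 26 interferon response genes, 3 were downregulated and 1 (Ifit3b) upregulated. Without control mouse 3, HFD mouse 1, or HFD mouse 3, 1, 1, and 2 of the antigen presentation genes and no interferon gene were called by edgeR. Tap1, which pumps peptides to class I molecules, fell from 6.805 to 10.27 CPM to 4.119 to 5.258 CPM (log2FC -0.78, SE 0.147, adjusted P = 0.0114). None of 14 macrophage markers was called by edgeR or by DESeq2 (1 lower at an unadjusted P under 0.05), and the macrophage gene Adgre1 was at 8.694 to 12.28 CPM and 7.901 to 12.71 CPM. Of 15 endothelial markers, 2 were downregulated, Pecam1 (log2FC -0.50, SE 0.0883, adjusted P = 0.00975) and Cdh5 (log2FC -0.40, SE 0.11, adjusted P = 0.0391). Of 25 matrix genes, Col15a1, a basement membrane collagen, rose from 31.26 to 36.84 CPM to 55.42 to 80.92 CPM (log2FC 1.02, SE 0.13, adjusted P = 0.00325), Postn fell, and Col1a1 was not called (log2FC 0.03, SE 0.263, adjusted P = 0.954).

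The counts that follow stand beside 4.9% upregulated and 5.81% downregulated over all genes tested. Of 20 antioxidant genes, 4 were downregulated, among them catalase (Cat; log2FC -0.93, SE 0.24, adjusted P = 0.0335) and superoxide dismutase 1 (Sod1; log2FC -0.41, SE 0.116, adjusted P = 0.0449). None of the 4 remained without control mouse 3 or HFD mouse 1 or 3. Of 12 polyamine genes, spermine synthase (Sms) and the antizyme gene Oaz2 rose and Sat1, which starts polyamine breakdown, fell (log2FC -0.70, SE 0.186, adjusted P = 0.0368). Neither Sms nor Oaz2 was called by edgeR without HFD mouse 1, 2, or 3 or over all 16 mice, and Sat1 kept its call in 7 of 14 settings. Of 12 genes of secreted factors, Igf1, a growth factor, fell from 37.25 to 55.59 CPM to 23.18 to 30.14 CPM (log2FC -0.74, SE 0.163, adjusted P = 0.0192). Of 19 heat shock genes, Dnajb1 was downregulated (log2FC -0.82, SE 0.222, adjusted P = 0.0387). Of 13 chemokines, Cxcl14 was upregulated and Cxcl13 downregulated. Among 7 satellite cell genes, the myogenic factor gene Myod1 was upregulated (log2FC 0.82, SE 0.187, adjusted P = 0.0217).

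Several of the genes with the highest log2FC among called genes above 4 CPM lay outside these lists. Nmrk2, a kinase of NAD synthesis in muscle, was at 19.56, 10.8, 12.63, and 16.63 CPM in the control mice and at 123.1, 92.44, 80.22, and 29.81 CPM in the HFD mice (log2FC 2.46, SE 0.513, adjusted P = 0.0176). HFD mouse 4 was the lowest of its group. Ky, a muscle protein named for the kyphosis of its mutant mouse, was at 124.8, 50.58, 62.64, and 83.41 CPM in the control mice and at 371, 349.1, 371.5, and 297.5 CPM in the HFD mice (log2FC 2.11, SE 0.255, adjusted P = 0.0028). The mitotic kinase gene Aurka (log2FC 1.94, SE 0.262, adjusted P = 0.00404) and its activator Tpx2 (log2FC 1.71, SE 0.38, adjusted P = 0.0207) rose from 1.086 to 2.898 CPM to 5.608 to 8.413 CPM and from 2.236 to 5.016 CPM to 9.282 to 11.07 CPM. The mitochondrial outer membrane gene Gdap1, the TGF-beta family ligand gene Gdf11, the collagen gene Col24a1, Flrt1, and 6430571L13Rik rose by a log2FC of 1.94, 1.84, 1.74, 1.72, and 1.72.

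At the other end, Gm6123 had 239 to 565 counts in the control libraries and none in the 4 HFD libraries, at least a 126-fold lower level (adjusted P = 0.0387), called in 5 of 14 settings. Its FPKM ranged from 0 to 11.57 in the HFD + RSV mice and from 0 to 12.19 in the metformin-treated mice, so some libraries of those groups also lacked it. Acsm3, an acyl-CoA synthetase for medium chains, was at 24.19, 25.37, 80.15, and 21.66 CPM in the control mice and at 0.5149, 0.4913, 1.093, and 3.567 CPM in the HFD mice (log2FC -4.76, SE 0.891, adjusted P = 0.0125). The very long chain acyl-CoA synthetase gene Slc27a2, the asparaginase gene Aspg, and the potassium channel gene Kcnk3 fell as well, with log2FC of -5.30, -5.28, and -4.39. Control mouse 3 was the highest in Acsm3, Slc27a2, Aspg, and Kcnk3, in parallel with the adipocyte markers. Of the most abundant downregulated genes per length, Fabp4, Scd1, and Lpl are described above, and the others were carbonic anhydrase 3 (Car3; 686.7 ± 504.6 FPKM in the control group and 169.9 ± 17.52 FPKM in the HFD group, SD, n = 4), Glul, and Txnip, an inhibitor of glucose uptake (log2FC -0.51, SE 0.121, adjusted P = 0.0245).

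The pathway annotation deposited with the genes is described here by shares alone, with no test. Of 5178 tested genes with a KEGG pathway, 4.87% were upregulated and 7.57% downregulated, and 286 pathways had at least 15 tested genes. The highest shares of downregulated genes were in biosynthesis of unsaturated fatty acids (11 of 23 genes), beta-alanine metabolism (9 of 22), fatty acid elongation (8 of 23), and, with equal shares, drug metabolism by cytochrome P450 (12 of 36) and histidine metabolism (5 of 15). Beta-alanine and histidine metabolism share the aldehyde dehydrogenase genes Aldh2, Aldh9a1, Aldh3b2, and Aldh1a3, and the fatty acid pathways share Elovl6 and Elovl5. The highest shares of upregulated genes were in long-term potentiation (12 of 52), mannose type O-glycan biosynthesis (4 of 18), GnRH signaling (16 of 75), and prolactin signaling (11 of 54). In long-term potentiation and GnRH signaling the upregulated genes included the kinase genes Camk2a and Camk2b, and in prolactin signaling they included Cish, Socs1, Socs3, and Socs7.

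In the lncRNA table, 16503 of 58245 transcripts were tested and 537 (3.25%) were called, 346 upregulated (2.1%) and 191 downregulated (1.16%) in the HFD group. Scaling over both tables together gave 267 up and 281 down. Of the called lncRNAs, 176 exceeded a log2FC of 1 and 107 were below -1. The count was 662 without control mouse 1, 112, 219, and 337 without control mouse 2, 3, and 4, and 224, 220, 175, and 426 without HFD mouse 1, 2, 3, and 4. Many tested lncRNAs, called or not, lie within protein-coding genes. Outside coding gene spans lay 4573 of the 16503 tested, 131 of the 346 upregulated, and 41 of the 191 downregulated ones. Of the 346 upregulated ones, 201 lay in the span of a tested coding gene, which was upregulated for 75 and downregulated for 2. Of the 191 downregulated ones, 146 did, and the coding gene was upregulated for 3 and downregulated for 60. Over all coding and other genes of the mRNA table that were tested, 4.9% were upregulated and 5.81% downregulated. Without strand, the reads of a lncRNA and of the gene that spans it cannot be told apart.

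NONMMUT018494.2 (chr13:83664245-83666339, GRCm38), which overlaps an exon of Mef2c, was at 2.193, 1.643, 1.275, and 2.056 CPM of the lncRNA table in the control mice and at 91.55, 361.7, 286.5, and 153 CPM in the HFD mice. The groups were far apart (log2FC 6.96, SE 0.454, adjusted P = 9.1e-05), and this was the lowest adjusted P of the table. Its FPKM was 0.1217 to 0.1291 in the HFD + RSV mice and 0.09904 to 16.76 in the metformin-treated mice. NONMMUT065156.2 (chr8:33697247-33698161), which overlaps an exon of the glutathione reductase gene Gsr, was at 84.08, 77.83, 83.14, and 86.69 CPM in the control mice, and the HFD libraries held 2 or 3 counts each, at least a 90.7-fold lower level (adjusted P = 0.015 in edgeR's test). Its control values varied little. The coding gene Gsr moved the other way (log2FC 0.66, adjusted P = 0.045 in the same test). In the HFD + RSV mice its FPKM was 0.07963 to 12.59, so that group held low and high mice, and in the metformin-treated mice it was 11.82 to 16.42.

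NONMMUT153460.1 (chr9:107327449-107336207), which overlaps an exon of Hemk1 and begins 30.8 kb from the start of Cish, was at 0.3656, 1.232, 0.255, and 0.6853 CPM in the control mice and at 4.401, 9.17, 16.59, and 17.5 CPM in the HFD mice (log2FC 4.07, SE 0.6, adjusted P = 0.00973). Hemk1 itself was not called (log2FC 0.24, adjusted P = 0.22 in edgeR's test). The other called lncRNAs with the highest log2FC were ENSMUST00000133752 in the span of Palld (log2FC 5.32, SE 1.05), NONMMUT139818.1 on chromosome 10 outside coding genes (log2FC 4.45, SE 0.673), and NONMMUT115212.1 within Adamtsl1, whose control libraries held at most 3 counts each, an at least 7.69-fold lower level than in the HFD mice.

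Among the lowest of the called lncRNAs, NONMMUT153500.1 (chr9:115512854-115513592) and NONMMUT153501.1 (chr9:115515209-115516033) are neighbours outside coding genes and had no count in the HFD libraries, which gives levels at least 11.1-fold and 9.09-fold lower. In the control mice they were at 5.118, 6.366, 23.46, and 5.482 CPM and at 4.387, 4.518, 20.91, and 3.426 CPM, with control mouse 3 the highest in both. NONMMUT037951.2 on chromosome 2 was at 8.408, 14.99, 54.07, and 3.426 CPM in the control mice. It had at most 2 counts in an HFD library, at least 22.1-fold below a control mean that control mouse 3 dominated. NONMMUT128951.1 on chromosome 8 had 2, 30, 17, and 9 counts in the control libraries and at most 1 in an HFD library. Its bound, at least 3.91-fold below the control mean, leaves control mouse 1 itself under the floor of 3 counts. Among the 113 tested transcripts from the authors' own assembly, 17 were upregulated and 3 downregulated, beside 2.1% and 1.16% of all lncRNAs tested.

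**Figure D5:**
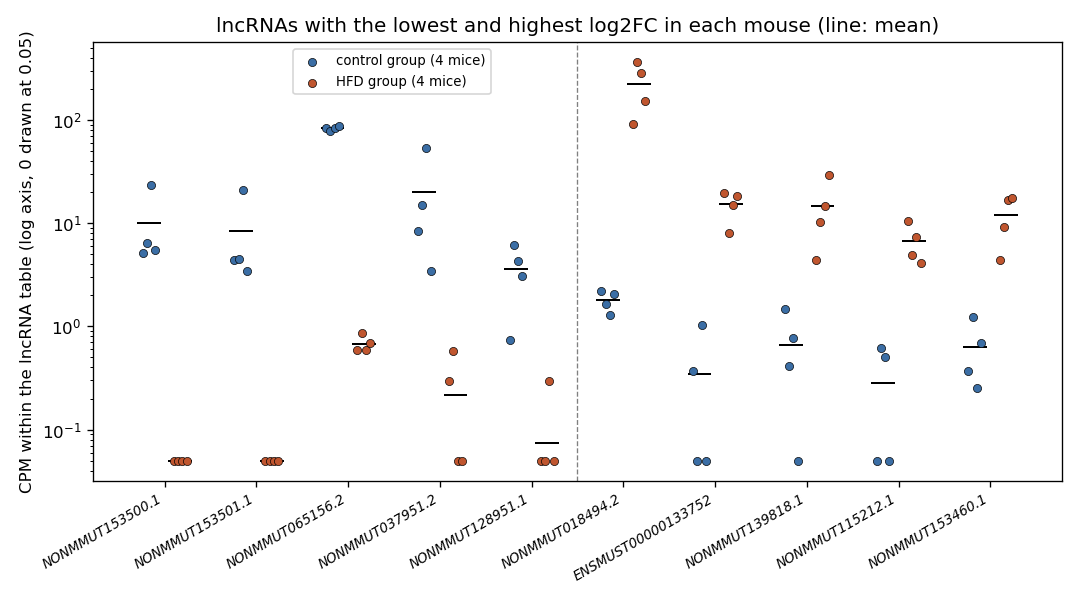
Points are single mice (4 control in blue, 4 HFD in orange, in the order of their replicate numbers) for the 5 lncRNAs with the lowest and the 5 with the highest log2FC among those called, and lines are group means. The y axis is CPM within the lncRNA table on a log axis, with values of 0 drawn at 0.05. In each of the 10 lncRNAs the groups do not overlap, and in NONMMUT065156.2 the control mice lie between 77.83 and 86.69 CPM. In NONMMUT128951.1 the lowest control mouse had 2 counts and the highest HFD mouse 1.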

How the data were processed

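Total RNA of skeletal muscle from 16 mice was depleted of ribosomal RNA and sequenced, and the 8 control and HFD mice were compared. Estimated counts and FPKM per transcript were made by the authors from reads trimmed with fastp and aligned with HISAT2 to GRCm38 and counted with StringTie, and were deposited in a table of mRNAs (82388 transcripts) and a table of lncRNAs (58245). The versions of fastp and HISAT2 are not given in the sources used here, and neither is whether counting used strand. Counts are divided over isoforms and paralogs by estimation, so near-identical genes are uncertain. Transcript coordinates were identical to those of GENCODE M21 (GRCm38) for 97.4% of mRNAs with an Ensembl identifier and 98.7% of lncRNAs.

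The estimated counts deposited by the authors were rounded, and mRNA counts were summed per gene name. In each table, features passing filterByExpr by group (minimum count 10, total 15) were scaled by TMM and fitted with edgeR 4.0.16 (R 4.3.3; robust quasi-likelihood) over the 12 control, HFD, and HFD + RSV mice, so the HFD + RSV mice enter the filter, the scaling, and the estimate of spread but not the contrast. A feature was called at a Benjamini-Hochberg adjusted P under 0.05, at any fold, over all features of its table. The biological coefficient of variation was 0.2276 for genes and 0.3819 for lncRNAs. The scripts were checked on simulated data. The FPKM deposited by the authors were used only to compare levels between genes and for the other treatment groups. A level at 3 counts or fewer in every library of a group was set at a floor of 3 counts per library, which gives bounds that cover counting error only.

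The members of the gene lists, the lists, and the naming rules were chosen with earlier results of these data known. Named were the 10 highest and 10 lowest log2FC among called genes without overlap and with a mean of at least 4 CPM, the 6 most abundant called genes by FPKM in each direction, the first gene and up to 4 called genes with the smallest adjusted P of each list, all SOCS genes, the 5 highest and 5 lowest called lncRNAs without overlap and with a mean of at least 1 CPM, and the pathways with the highest shares (at least 15 genes tested). Some members that these rules name are not reported here. Motifs were sought in RefSeq promoters of GRCm38.p6. Alternatives were RLE scaling, DESeq2 1.42.0, no filter, 8 or 16 mice, TMM over both tables, each mouse left out, other thresholds, and counts per transcript. The Adipoq ratios were added after the values were seen.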

Additional observations from a re-analysis of the deposited data

Results flagged for a closer look

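In 21 of 112 groups of 4 mice examined, 1 mouse lay further from the others than Dixon's critical value allows. The nominal rate of about 5% holds for independent, normally distributed values. These groups were picked partly by their values and share the same mice, so 21 of 112 cannot be set against that rate. Control mouse 3 was the highest of its group in 9 of them, namely Acsm3 (80.15 CPM), Elovl3 (48.54 CPM), Fabp4 (2202 CPM), Kcnk3 (89.22 CPM), Ucp1 (404.1 CPM), the summed brown adipocyte markers (857.8 CPM), the summed fibroblast markers (2265 CPM), and the neighbouring lncRNAs NONMMUT153500.1 (23.46 CPM) and NONMMUT153501.1 (20.91 CPM). The part of this mouse in each call is seen in the values without it. Fabp4, for example, had a log2FC of -1.92 with it and -1.15 without it.

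Control mouse 1 was the highest of its group in 3 fast fibre genes, Casq1 (1491 CPM), Mybpc2 (5282 CPM), and Pvalb (3960 CPM), in each of which it lay closest to the HFD mice. Control mouse 4 was the lowest in Txnip (1052 CPM).

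In the HFD group, mouse 4 was the lowest in the summed myofibre markers (270500 CPM) and in Tpx2 (9.282 CPM) and the highest in the summed brown adipocyte markers (57.39 CPM). HFD mouse 3 was the highest in Slc27a2 (1.531 CPM), Elovl3 (0.1312 CPM), and NONMMUT128951.1 (0.2963 CPM). In Elovl3 and NONMMUT128951.1 the other HFD mice were at 0 CPM, so these marks rest on the counting floor. HFD mouse 2 was the lowest in Aurka (5.608 CPM) and the highest in the summed erythroid markers (469.7 CPM).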

How the results depend on the processing

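The number of called mRNA genes was 1616. It was 2514 with DESeq2, 998 in a fit to the 8 mice alone, 374 in a fit over all 16 mice, 449 with an absolute log2FC over 1 also required, 761 with an unadjusted P under 0.05 and that fold, and 104 when transcripts were tested singly. Leaving out 1 mouse gave 398 (without HFD mouse 1) to 2378 (without control mouse 1). The number of called lncRNAs was 537. It was 899 with DESeq2, 284 over all 16 mice, 283 with the fold also required, and 974 with the unadjusted P and the fold, and leaving out 1 mouse gave 112 (without control mouse 2) to 662 (without control mouse 1). The cause of these changes was not tested, beyond the fewer mice or the other threshold of a setting itself. RLE scaling, no filter on low counts, and TMM over both tables kept both counts within 1.5 times.

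Of the 112 named genes that were called, 111 kept the call with RLE scaling, 103 with TMM over both tables, 89 without the filter, 30 over all 16 mice, and 38 to 107 when 1 mouse was left out. DESeq2 called all 111 for which it gave an adjusted P. None of the 112 genes or of the 10 named lncRNAs changed direction in any of these settings. The genes called in all 14 settings were 6430571L13Rik, Acaca, Aurka, Bnip3, Cidea, Col15a1, Col24a1, Ddit4, Eif4ebp1, Elovl6, Fads1, Fasn, Gabarapl1, Jph2, Ky, Mef2c, Rapsn, Socs1, and Stac3, and the lncRNAs were NONMMUT018494.2, NONMMUT139818.1, and NONMMUT153460.1. No paired analysis was possible because no number in the labels links a control mouse to an HFD mouse. Many lncRNAs rest on a few counts per mouse, and an uncalled feature is no sign of an equal level.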

Other observations

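A few transcripts were nearly all or none. A search for features with at most 3 counts in every mouse of 1 group and at least 30 in every mouse of the other found 1 gene and 2 lncRNAs, a rule chosen after values were seen. Gm6123 and NONMMUT065156.2, described above, were absent or near absent in the HFD group. In the HFD + RSV mice Gm6123 had between 0 and 324 counts and NONMMUT065156.2 between 2 and 298, and in the metformin-treated mice they had between 0 and 417 and between 233 and 367 counts. NONMMUT069496.2 was not called (log2FC 5.04, SE 1.25, adjusted P = 0.0593 in edgeR's test), although it had 2 or 3 counts in the control mice and 76 to 106 in the HFD mice, with 2 to 89 in the HFD + RSV mice and 2 to 123 in the metformin-treated mice. In the HFD + RSV group, then, each of the 3 features ranged from the low to the high state among mice that received the same treatment.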
